A study of Mus musculus with 21 samples.

Results

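The genes described here load amino acids onto tRNA or keep the cell supplied with amino acids. A list of 45 such genes was drawn up by function: 20 cytosolic aminoacyl-tRNA synthetases, 8 genes of serine and one-carbon metabolism, 8 genes of amino acid synthesis and 9 amino acid transporters. Of these, 41 had a probe set on the array, among 12393 genes in all. Dars, Mars, Mthfd1l and Pycr1 had no probe set that named them alone and were not analysed here. The choice rested on function and on the presence of a probe set, and was made with earlier results of these data known.

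An aminoacyl-tRNA synthetase joins 1 kind of amino acid to its tRNA, the step that lets the ribosome read a codon. Serine made from glucose feeds glycine and folate-bound one-carbon units, and transporters of the SLC families bring other amino acids into the cell. In mammalian cells many of these genes are known targets of ATF4, a transcription factor whose translation increases when eIF2 is phosphorylated during amino acid shortage or protein folding stress. ATF4 pairs with C/EBP proteins on a composite DNA element studied in genes such as Asns and Ddit3.

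Cerebral cortex of 21 mice on a mixed C57BL/6J x C3HeJ background was profiled on Affymetrix MOE430A 2.0 arrays, 1 array per mouse. The 5 dNLS bigenic mice (line NLS4, 4 males and 1 female) carried tTA, a transactivator that doxycycline keeps inactive, and a tTA-driven transgene for human TDP-43 with a defective nuclear localization signal. The 4 WT bigenic mice (line WT12, 1 male and 3 females) carried tTA and a transgene for wild-type human TDP-43. The 4 dNLS monogenic mice (line NLS4, 3 males and 1 female) carried the TDP-43 transgene without tTA, and 8 nontransgenic mice carried neither. Line NLS4 gave 6 of the nontransgenic mice (4 males and 2 females as labelled) and line WT12 the other 2 (both female). All mice had been off doxycycline for 2 weeks, and their age is not given in the sources used here. In these lines the Camk2a promoter drives tTA, mainly in excitatory neurons of the forebrain, and each TDP-43 line descends from 1 founder. No group carried tTA alone, so effects of tTA and of TDP-43 in bigenic mice cannot be told apart.

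Values are the deposited log2 levels, which ran from 2.04 to 15.08. The value 2.04 was a common lowest value at which no change can be read, and 38 of the 41 genes lay above it on all 21 arrays. Changes are tested group differences in log2 level from 1 fit in limma over all arrays and all 12393 genes, with sex as a covariate, and an adjusted p under 0.05 was taken as passing. Nontransgenic 6 and nontransgenic 4 stood apart by a large 3' bias, with beta-actin 3' probe sets 8.196 and 4.696 log2 units above its 5' ones, against 1.338 to 2.302 in dNLS bigenic mice and 1.374 to 1.433 in WT bigenic mice. Changes in Eprs, Mthfd2, Shmt2, Cth, Got1 and Slc7a5 are given with and without these 2 arrays, and those of the other genes with them. Nontransgenic 6 was also far below its group in Farsa, Rars and Sars, and far above it in Shmt1. Rars, Sars and Shmt1 passed against nontransgenic mice without these 2 arrays too. Nontransgenic 1, labelled male, had Xist at 11.97 and the Y-linked Eif2s3y at 2.04, the pattern of the females. Its label was kept in the sex covariate. A fit without that covariate was also run, but none with its sex changed.

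Genes for tRNA charging and amino acid supply were higher in dNLS bigenic cortex, by 1.18-fold to 5.02-fold for those that passed the test. These folds are from the brightest probe set of each gene. Of 9 genes that rose and had another probe set that also rose, 8 changed more in the other one. Against nontransgenic mice 22 of the 41 genes rose and none fell. Over all genes 10.8% rose and 11.5% fell. Among the 8366 genes read above the lowest value on every array, 15.3% rose and 16.8% fell. At an unadjusted p under 0.05 limma gave 25 genes of the list higher and 0 lower, where 15% of all genes were higher and 16.8% lower. The median change over the 41 genes was 0.33 on the log2 scale, against -0.02 over the 8366 genes. In 16 of the 41 all 5 dNLS bigenic arrays lay above all 8 nontransgenic arrays, which held for 6.78% of all genes. In 12 of them all 5 dNLS bigenic arrays lay above all 16 other arrays, against 4.91% of all genes.

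Most of the synthetases rose, 12 of 18 measured, with a median change of 0.56. In the serine and one-carbon class 3 of 7 rose, with a median of 0.48. Among the transporters 5 of 9 rose (median 0.28). In the amino acid synthesis class 2 of 7 rose, and the median was -0.06. RNA of whole cortex was measured, so fewer cells of a type and less RNA per cell cannot be told apart, nor can more cells and more RNA.

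**Figure D1:**
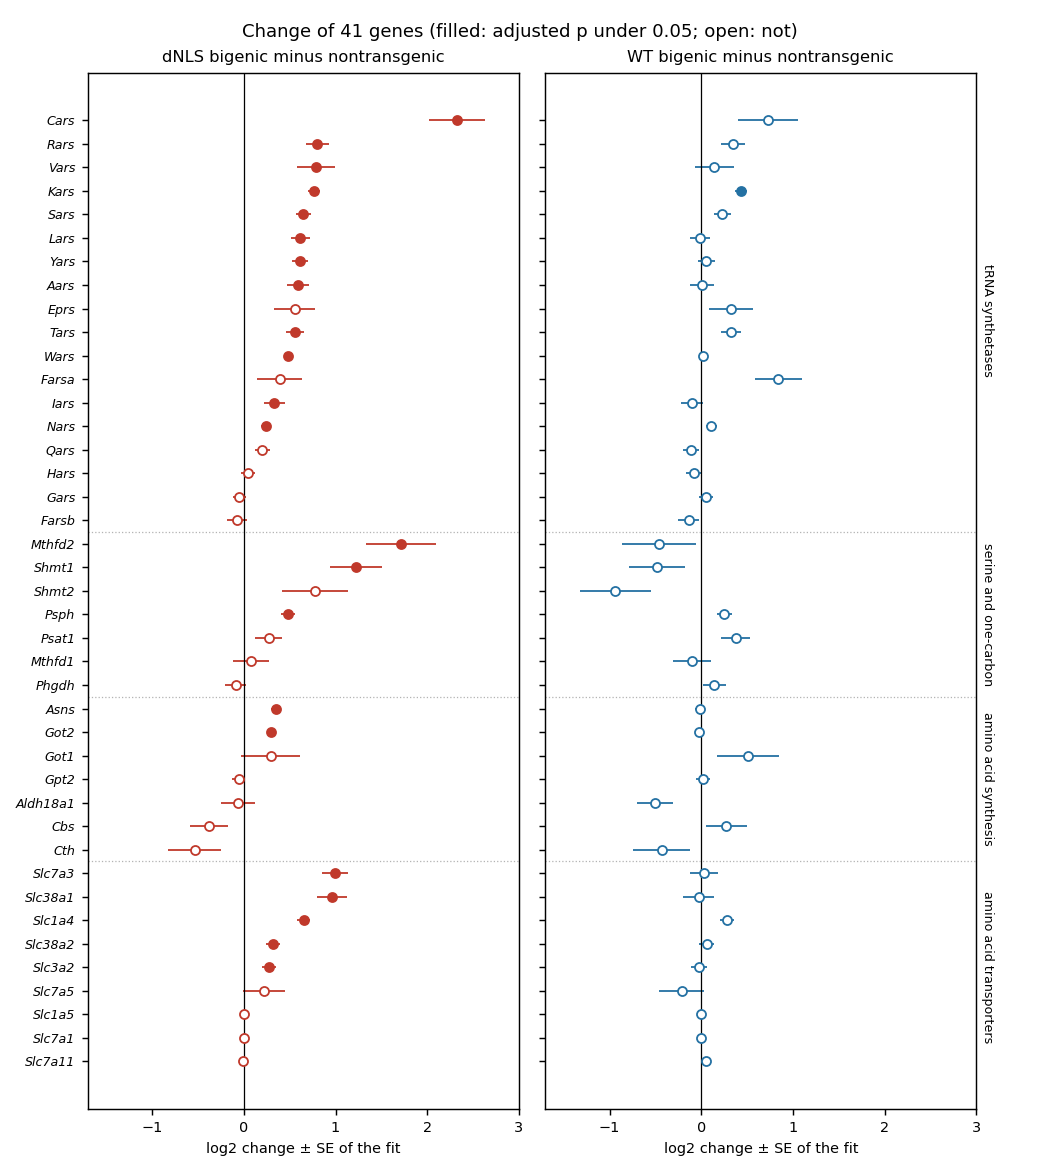
Log2 change of each of the 41 genes, with the SE of the fit, in dNLS bigenic mice (left) and WT bigenic mice (right), both minus nontransgenic mice. Filled points passed an adjusted p of 0.05. On the left 22 points are filled, all to the right of 0, with Cars farthest at 2.33. On the right only Kars is filled.

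Promoter sequence was also read for the core of the ATF4 and C/EBP element. The letters TGATGNAA were searched on both strands in RefSeq promoters of build GRCm38.p6, from 250 bases before to 50 after the start of each gene. Of the 41 genes 29 had a promoter in the table and 9 of them held a match, against 4.51% of 27025 genes and 3.97% of 32851 promoters. Many genes of the list are known ATF4 targets, so the share with a match does not rest on the array values. Among the genes that rose, 6 of 14 with a promoter held one, and 3 of 15 among the others. The 6 are shown from 80 bases before to 20 after the start, 5' to 3' on the strand of the gene, with each match in capitals; a match written TTNCATCA lies on the opposite strand.
Aars, chr8:111033762-111033861 (+): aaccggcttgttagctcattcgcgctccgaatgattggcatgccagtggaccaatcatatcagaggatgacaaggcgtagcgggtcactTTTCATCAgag
Asns, chr6:7693190-7693289 (-): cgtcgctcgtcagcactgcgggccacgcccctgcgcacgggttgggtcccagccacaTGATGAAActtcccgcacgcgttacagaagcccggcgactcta
Iars, chr13:49682050-49682149 (+): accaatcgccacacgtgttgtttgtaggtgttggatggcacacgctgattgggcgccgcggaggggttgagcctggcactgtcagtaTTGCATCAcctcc
Slc1a4, chr11:20332694-20332793 (-): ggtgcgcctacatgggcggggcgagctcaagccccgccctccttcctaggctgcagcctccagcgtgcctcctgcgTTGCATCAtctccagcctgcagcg
Tars, chr15:11399639-11399738 (-): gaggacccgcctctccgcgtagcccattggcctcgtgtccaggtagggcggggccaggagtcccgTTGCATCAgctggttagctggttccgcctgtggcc
Yars, chr4:129189823-129189922 (+): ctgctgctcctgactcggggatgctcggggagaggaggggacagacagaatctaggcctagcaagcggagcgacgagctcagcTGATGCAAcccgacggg

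The matches in these 6 genes began between 23 bases before and 10 bases after the start, except for a further one in Aars at -112. Gars, Got1 and Slc7a11, which did not pass the test, also held matches, Slc7a11 at -66 and -47. The promoters of Got2, Kars, Mthfd2, Psph, Sars, Shmt1, Slc38a2 and Slc3a2, which rose, held no match in this window. A match is a run of letters and was not tested for binding.

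**Figure D2:**
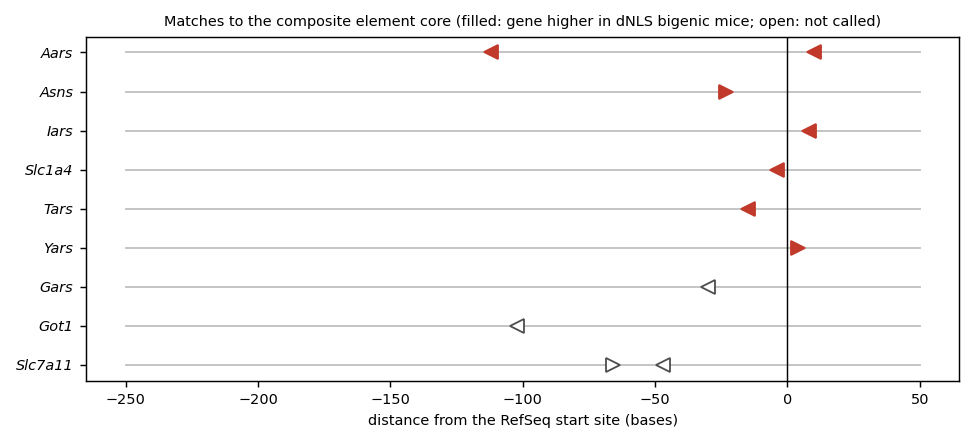
Positions of the TGATGNAA matches in 9 promoters, as distance in bases from the RefSeq start site (x axis, -250 to 50), 1 gene per line. Arrowheads point right for a match on the strand of the gene and left for the opposite strand; filled ones are genes that rose in dNLS bigenic mice. All 6 filled genes have a match within 23 bases of the start.

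Cars, which charges tRNA with cysteine, had the largest change of the list among the brightest probe sets. Its log2 levels were 8.38, 8.63, 8.61, 8.56 and 8.21 in dNLS bigenic mice, 7.04, 6.92, 7.33 and 6.84 in WT bigenic mice, and 6.76, 4.90, 6.13 and 7.02 in dNLS monogenic mice, against 5.41, 6.37 and 6.99 as lowest, median and highest in nontransgenic mice. All 5 dNLS bigenic arrays lay above all 16 others, and the 4 WT bigenic arrays overlapped the nontransgenic ones. The change was 2.33 ± 0.31 (SE), or 5.02-fold (adjusted p = 3.1e-05).

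Kars, the lysyl-tRNA synthetase of both cytosol and mitochondria, was among the tightest. It stood at 10.63, 10.59, 10.67, 10.62 and 10.67 in dNLS bigenic mice, at 10.25, 10.37, 10.47 and 10.35 in WT bigenic mice and at 10.06, 9.92, 10.01 and 9.98 in dNLS monogenic mice, against 9.71, 9.87 and 10.25 as lowest, median and highest in nontransgenic mice. The dNLS bigenic arrays were highest, the WT bigenic ones came next, and the other 2 groups overlapped below them. The change in dNLS bigenic mice was 0.76 ± 0.06, or 1.70-fold (adjusted p = 2.9e-07). Rars, the arginyl-tRNA synthetase, had 11.38, 11.24, 11.31, 11.24 and 11.19 in dNLS bigenic mice, against 9.70, 10.54 and 10.69 as lowest, median and highest in nontransgenic mice. The arrays did not overlap, and the change was 0.80 ± 0.12, or 1.75-fold (adjusted p = 1.3e-04). Its lowest value, 9.70, is that of nontransgenic 6.

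Sars, which charges tRNA with serine, had 12.94, 12.93, 12.96, 12.94 and 13.20 in dNLS bigenic mice, against 11.92, 12.39 and 12.49 in nontransgenic mice (lowest, median, highest). It rose by 0.65 ± 0.09, or 1.57-fold (adjusted p = 3.1e-05), with the single female dNLS bigenic mouse, number 5, highest. Wars, the tryptophanyl-tRNA synthetase, had 11.03, 11.01, 11.04, 10.91 and 11.21 in dNLS bigenic mice, 10.60, 10.65, 10.57 and 10.55 in WT bigenic mice and 10.37, 10.59, 10.50 and 10.46 in dNLS monogenic mice, against 10.49, 10.58 and 10.60 in nontransgenic mice. The 16 other arrays lay between 10.37 and 10.65, and no dNLS bigenic array fell among them. The change was 0.49 ± 0.04, or 1.40-fold (adjusted p = 4.5e-07).

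Aars, the alanyl-tRNA synthetase, had 11.87, 11.72, 11.68, 11.47 and 12.20 in dNLS bigenic mice, against 10.89, 11.25 and 11.45 in nontransgenic mice (lowest, median, highest). It rose by 0.59 (1.51-fold, adjusted p = 0.00211), and the nearest dNLS bigenic array was only just above the highest nontransgenic one. Yars, for tyrosine, had 10.80, 10.74, 10.68, 10.54 and 10.95 in dNLS bigenic mice, against 9.92, 10.12 and 10.31 in nontransgenic mice. It rose by 0.61 ± 0.09, or 1.53-fold (adjusted p = 7.1e-05), with no overlap. Tars, for threonine, had 9.71, 9.90, 9.75, 9.70 and 9.89 in dNLS bigenic mice, against 8.87, 9.33 and 9.44 in nontransgenic mice. It rose by 1.47-fold (adjusted p = 5.6e-04), and 1 WT bigenic array, at 9.76, lay within the dNLS bigenic range.

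Lars, for leucine, had 11.36, 11.21, 11.27, 11.12 and 11.49 in dNLS bigenic mice, against 10.45, 10.67 and 11.16 in nontransgenic mice (lowest, median, highest). It rose by 0.62 ± 0.10, or 1.53-fold (adjusted p = 2.5e-04), and the groups overlapped only through the highest nontransgenic array. Iars, for isoleucine, had 11.82, 11.63, 11.57, 11.51 and 11.79 in dNLS bigenic mice, against 10.89, 11.35 and 11.60 in nontransgenic mice. It rose by 0.33 ± 0.11, or 1.26-fold (adjusted p = 0.0384); the groups overlapped, and the call was lost without any one of 7 arrays, at adjusted p values up to 0.197. Nars, for asparagine, had 12.65, 12.51, 12.62, 12.61 and 12.56 in dNLS bigenic mice, against 12.12, 12.41 and 12.48 in nontransgenic mice. The arrays did not overlap, but the change was the smallest to pass among the brightest probe sets, 0.24 ± 0.06, or 1.18-fold (adjusted p = 0.00479). Vars, for valine, was dim: 4.23, 4.27, 3.80, 3.56 and 3.06 in dNLS bigenic mice, against 2.51, 3.06 and 3.12 in nontransgenic mice. It passed at 0.79 ± 0.20 (adjusted p = 0.00884), but the value 3.06 recurred on many arrays and dNLS bigenic 5 held it too.

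The other 6 synthetases did not pass. Eprs, which charges tRNA with both glutamate and proline, differed by 0.55 (95% interval 0.08 to 1.03, adjusted p = 0.0921). Nontransgenic 6 had Eprs at 8.99 and the others 10.04 to 10.87; without nontransgenic 4 and 6 the change was 0.31 ± 0.07 (SE) and passed (adjusted p = 0.0019). Qars, for glutamine, differed by 0.20 (0.02 to 0.37, adjusted p = 0.101). Gars, for glycine, differed by -0.05 (interval -0.20 to 0.10) and Hars, for histidine, by 0.04 (-0.12 to 0.21). Changes as large as those of Kars or Sars lie outside these intervals, which hold for 1 probe set per gene. Farsa and Farsb, the 2 subunits of the phenylalanyl-tRNA synthetase, differed by 0.39 (-0.13 to 0.91) and -0.07 (-0.31 to 0.16). Farsa was at 7.82, 7.91, 7.85, 8.57 and 7.82 in dNLS bigenic mice, against 8.22, 8.40, 8.50 and 8.42 in WT bigenic mice, so only dNLS bigenic 4 reached the WT bigenic level.

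Several synthetases sit together in a multi-synthetase complex held by scaffold proteins. Of its 6 measured enzymes (Eprs, Iars, Kars, Lars, Qars and Rars) 4 rose, and of the 12 synthetases outside it 8 rose; this grouping was made after the values were seen and was not tested. Of the 3 scaffold genes 2 rose in dNLS bigenic mice, Aimp2 by 0.67 ± 0.16 (SE, adjusted p = 0.00423) and Eef1e1 by 0.40 ± 0.08 (adjusted p = 0.00107). Among synthetases that serve mitochondria alone, 1 of 8 measured genes rose and none fell, where 10.8% of all genes rose and 11.5% fell. It was Ears2, for glutamate, at 3.19 in dNLS bigenic mice and 2.70 in nontransgenic mice, near the lowest value (change 0.58, adjusted p = 0.0299).

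**Figure D3:**
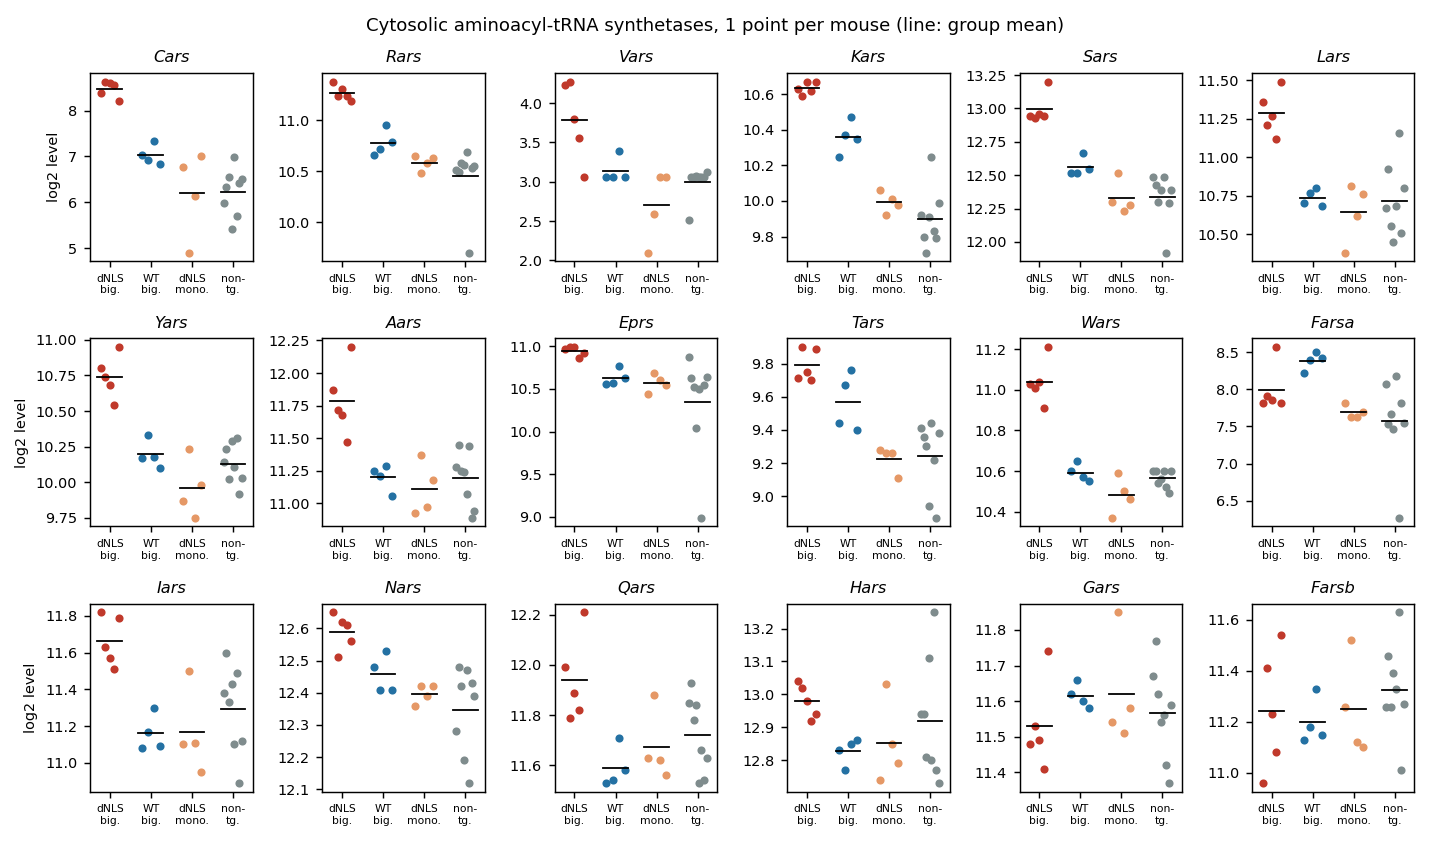
Log2 level of the 18 cytosolic synthetases in each mouse, 1 panel per gene with its own y axis, from left to right dNLS bigenic, WT bigenic, dNLS monogenic and nontransgenic; lines are group means. For Cars, Kars, Rars, Sars, Aars, Yars and Wars every dNLS bigenic point lies above every other point. The low point of nontransgenic 6 can be seen in Eprs, Farsa and Rars.

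Of the 3 enzymes that make serine from glucose, Psph, the last, passed. Phgdh, which opens the route, did not pass, at 11.02, 11.10, 11.32, 11.27 and 11.82 in dNLS bigenic mice, against 11.28, 11.39 and 11.66 in nontransgenic mice (lowest, median, highest). Its change was -0.09 (95% interval -0.33 to 0.15, adjusted p = 0.764), and its 4 probe sets gave -0.25 to -0.01, none of them passing. Psat1, the aminotransferase of the next step, differed by 0.27 (-0.04 to 0.59, adjusted p = 0.235). Psph, the phosphatase that releases serine, had 9.97, 9.82, 9.80, 9.96 and 9.83 in dNLS bigenic mice, 9.52, 9.60, 10.02 and 9.49 in WT bigenic mice and 9.51, 9.30, 9.45 and 9.44 in dNLS monogenic mice, against 9.33, 9.37 and 9.54 in nontransgenic mice. It rose by 0.48 ± 0.07, or 1.39-fold (adjusted p = 1.6e-04), and 1 WT bigenic array, number 3, was the highest of all 21.

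Mthfd2, a mitochondrial folate enzyme that is low in most adult tissue, had the second largest change of the list among the brightest probe sets. Its levels were 8.86, 8.15, 8.40, 8.21 and 8.99 in dNLS bigenic mice, 6.12, 6.35, 7.09 and 6.00 in WT bigenic mice and 6.15, 6.66, 6.12 and 6.25 in dNLS monogenic mice, against 6.02, 6.57 and 8.56 in nontransgenic mice (lowest, median, highest). The overlap came from nontransgenic 6, at 8.56; nontransgenic 4 was next, at 7.77. The change was 1.71 ± 0.38, or 3.28-fold (adjusted p = 0.00327), and without those 2 arrays it was 2.13 ± 0.23 (adjusted p = 6.8e-06). A second, dimmer probe set of Mthfd2 averaged 5.41 in dNLS bigenic mice and 2.52 in nontransgenic mice, a change of 2.88 ± 0.20 (adjusted p = 2.7e-08 over 20380 probe sets).

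Shmt1 and Shmt2, the cytosolic and mitochondrial enzymes that turn serine into glycine, were more variable. Shmt1 had 5.62, 5.92, 6.27, 4.68 and 6.54 in dNLS bigenic mice, 3.92, 4.58, 4.66 and 4.11 in WT bigenic mice and 4.03, 4.83, 4.34 and 4.66 in dNLS monogenic mice, against 4.09, 4.66 and 5.80 in nontransgenic mice. It rose by 1.23 (2.34-fold, adjusted p = 0.00432); dNLS bigenic 4, at 4.68, was within the nontransgenic range, and nontransgenic 6, at 5.80, within the dNLS bigenic range. Shmt2 had 9.04, 7.96, 8.78, 8.15 and 9.39 in dNLS bigenic mice, 7.00, 6.58, 7.31 and 6.64 in WT bigenic mice and 6.88, 8.10, 7.14 and 6.59 in dNLS monogenic mice, against 6.98, 7.87 and 9.16 in nontransgenic mice. It did not pass against nontransgenic mice (0.78, interval 0.01 to 1.54, adjusted p = 0.149), although it did without nontransgenic 4 and 6 (0.93 ± 0.32, adjusted p = 0.0452). It passed against WT bigenic mice (1.71 ± 0.44, adjusted p = 0.0179) and against dNLS monogenic mice (1.48, adjusted p = 0.0208). Mthfd1, the cytosolic trifunctional folate enzyme, differed from nontransgenic mice by 0.07 (interval -0.34 to 0.49).

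The 2 amino acid synthesis genes that rose were small in change and tight in spread at their brightest probe sets. Got2, the mitochondrial aspartate aminotransferase, had 13.10, 13.15, 13.22, 13.13 and 13.13 in dNLS bigenic mice, 12.83, 12.88, 12.81 and 12.83 in WT bigenic mice and 12.89, 12.92, 12.89 and 12.96 in dNLS monogenic mice, against 12.79, 12.85 and 12.89 in nontransgenic mice (lowest, median, highest). No group's SD was above 0.04, and the change was 0.30 ± 0.02, or 1.23-fold (adjusted p = 1.0e-07). The other probe set of Got2 did not pass. With the mean of its probe sets, Got2 did not pass in limma against WT bigenic (adjusted p = 0.833) or dNLS monogenic mice (adjusted p = 0.44). Asns, which makes asparagine, had 12.51, 12.38, 12.47, 12.41 and 12.62 in dNLS bigenic mice, 12.08, 12.04, 12.23 and 12.10 in WT bigenic mice and 12.16, 12.26, 12.07 and 12.09 in dNLS monogenic mice, against 12.02, 12.11 and 12.26 in nontransgenic mice. It rose by 0.35 ± 0.05, or 1.27-fold (adjusted p = 1.3e-04), with no overlap with any other array.

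The other 5 genes of this class did not pass. Cbs and Cth, the enzymes that route homocysteine to cysteine, differed by -0.38 (95% interval -0.82 to 0.06, adjusted p = 0.239) and -0.54 (-1.15 to 0.08, adjusted p = 0.232). Cth was highest in nontransgenic 6, and without nontransgenic 4 and 6 its change was -0.21 (adjusted p = 0.105). Got1, the cytosolic aspartate aminotransferase, differed by 0.29 (-0.39 to 0.97), with nontransgenic 6 at 9.87 and the other 7 nontransgenic arrays at 11.16 to 12.31. Its sign turned without those 2 arrays, at -0.04 (adjusted p = 1.0), and with the 3' bias as a covariate it passed as lower, at -0.21 ± 0.05 (SE, adjusted p = 0.00761). Gpt2, an alanine aminotransferase, and Aldh18a1, which starts proline synthesis, both differed by -0.06 (intervals -0.21 to 0.09 and -0.46 to 0.33).

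Among the transporters, Slc7a3, a carrier of arginine and lysine, had 7.69, 7.52, 8.05, 8.09 and 8.14 in dNLS bigenic mice, 7.06, 6.58, 6.69 and 7.35 in WT bigenic mice and 7.01, 6.95, 7.06 and 6.73 in dNLS monogenic mice, against 6.73, 6.89 and 7.06 in nontransgenic mice (lowest, median, highest). It rose by 1.00 ± 0.14, or 1.99-fold (adjusted p = 7.2e-05), above all 16 other arrays. Slc38a1, a sodium-coupled carrier of glutamine, had 8.75, 8.43, 8.93, 8.45 and 8.29 in dNLS bigenic mice, 7.24, 7.48, 7.44 and 7.56 in WT bigenic mice and 7.79, 7.46, 7.87 and 7.49 in dNLS monogenic mice, against 6.93, 7.47 and 8.08 in nontransgenic mice. It rose by 0.96 ± 0.16, or 1.95-fold (adjusted p = 3.6e-04). Slc38a2, a carrier of the same family known to be induced by amino acid shortage, had 11.64, 11.62, 11.64, 11.55 and 11.52 in dNLS bigenic mice, against 10.86, 11.33 and 11.40 in nontransgenic mice. Its change was smaller, 0.32 ± 0.08, or 1.25-fold (adjusted p = 0.00611), and its arrays also lay above all 16 others.

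Slc1a4, a carrier of alanine, serine and cysteine, had 12.64, 12.60, 12.66, 12.59 and 12.89 in dNLS bigenic mice, 12.21, 12.20, 12.68 and 12.27 in WT bigenic mice and 12.10, 12.12, 12.03 and 12.05 in dNLS monogenic mice, against 11.91, 12.06 and 12.20 in nontransgenic mice. It rose by 0.65 ± 0.07, or 1.57-fold (adjusted p = 6.2e-06), and WT bigenic 3, at 12.68, again reached the dNLS bigenic range. Slc3a2, the heavy chain shared by several exchangers of large amino acids, had 12.32, 12.10, 12.16, 12.04 and 12.26 in dNLS bigenic mice, against 11.61, 11.93 and 12.06 in nontransgenic mice. It passed at 1.21-fold (adjusted p = 0.0174) with overlapping arrays, and did not pass without dNLS bigenic 1 (adjusted p = 0.0501) or dNLS bigenic 5 (adjusted p = 0.102). Its light chain partner Slc7a5 differed by 0.22 (95% interval -0.27 to 0.71, adjusted p = 0.661); nontransgenic 6 was highest of all arrays, at 11.72, and without nontransgenic 4 and 6 the change was 0.45 ± 0.16 (SE) and passed (adjusted p = 0.0459). Slc7a1 and Slc1a5 lay at the lowest value on all 21 arrays, and Slc7a11, the cystine carrier, stayed between 2.05 and 2.26, so no change could be read in them.

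**Figure D4:**
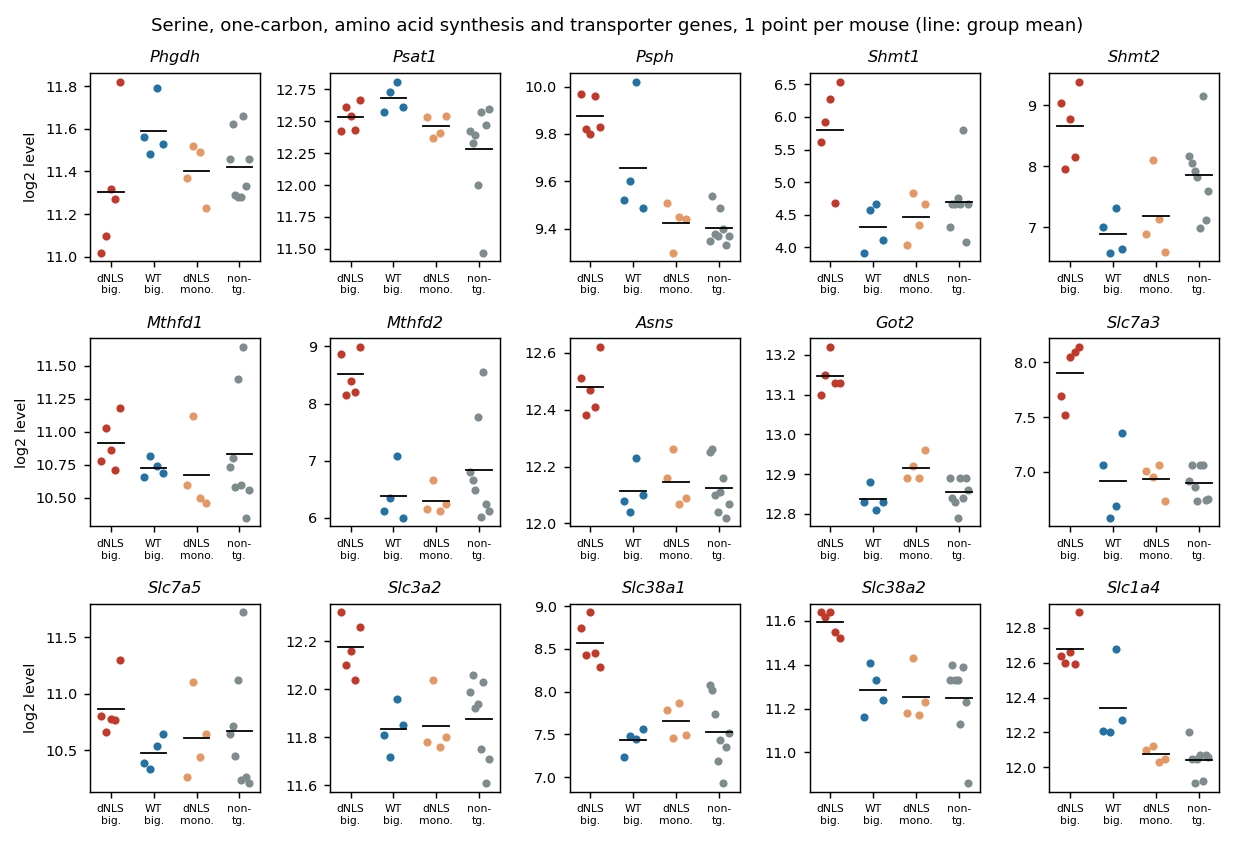
Log2 level of 15 genes of serine, one-carbon and amino acid synthesis and of transport in each mouse, drawn as for the synthetases, with dNLS bigenic mice at the left and nontransgenic mice at the right of each panel. Got2 and Asns show dNLS bigenic points above all others at small scale. The high nontransgenic points in Mthfd2, Shmt1, Shmt2 and Slc7a5 are nontransgenic 6.

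Other probe sets of the same genes were read as a check on the one chosen for its brightness. The members had 82 probe sets, of which 41 had not been chosen. Of these 41, 16 rose, 0 fell and 25 did not pass in dNLS bigenic mice, with p-values adjusted over 20380 probe sets. The share of all 20380 probe sets that rose is not given here, so counts of probe sets have no background beside them. Of 11 genes that rose and had another probe set, 9 had another one that also rose, and in 8 of the 9 it changed more than the chosen one. Slc1a4 was the widest case: its dimmest probe set averaged 8.33 in dNLS bigenic mice and 5.20 in nontransgenic mice, a change of 3.15 ± 0.15 (adjusted p = 6.2e-10), against 0.65 in the brightest. Wars had a dimmer probe set at 6.11 in dNLS bigenic mice and 4.36 in nontransgenic mice (change 1.84), Aars 1 at 1.02, Nars 1 at 0.96 and Iars 1 at 0.69. The exceptions were Cars, whose other probe set lay at the lowest value, and Got2, whose other one differed by 1.94 without passing (adjusted p = 0.0664).

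Of 11 genes that did not pass and had another probe set, 4 had one that rose. Shmt2 had one at 3.41 in dNLS bigenic mice and 2.60 in nontransgenic mice (change 0.82, adjusted p = 1.9e-04). Qars had one that changed by 0.56 (adjusted p = 0.00829), Aldh18a1 one by 0.56 (adjusted p = 0.00348) and Mthfd1 one by 0.61 (adjusted p = 0.0128), while their brightest probe sets gave 0.20, -0.06 and 0.07. Probe sequences were not used here, so which transcripts or transcript ends these probe sets read was not determined.

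Few of these genes changed in WT bigenic mice. Against nontransgenic mice 1 of the 41 genes rose in WT bigenic mice, Kars, by 0.44 ± 0.07 (SE), or 1.35-fold (adjusted p = 0.0116), with all 4 arrays above the nontransgenic ones, though the nearest of each round to the same 10.25. Such a gap was seen in 4 of the 41 genes and in 1.92% of all genes. None fell; over all genes 0.686% rose and 1.54% fell. At an unadjusted p under 0.05 limma gave 10 of the 41 higher and 2 lower, where 7.56% of all genes were higher and 10.9% lower. The median change was 0.02, against -0.03 over the genes read above the lowest value. Against the 2 nontransgenic females of its own line alone, Kars differed by 0.50 without passing (adjusted p = 0.115). Farsa, at 0.84 (adjusted p = 0.094), Cars, at 0.73 (adjusted p = 0.24), and Slc1a4, at 0.28 (adjusted p = 0.071), had positive values that did not pass.

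Set directly against WT bigenic mice, dNLS bigenic mice had 16 of the 41 genes higher and 0 lower, where 6.24% of all genes were higher and 4.53% lower. Of these 16, 15 were also higher against nontransgenic mice, the exception being Shmt2; both comparisons share the dNLS bigenic arrays. The changes were 2.17 ± 0.47 for Mthfd2 (adjusted p = 0.00587), 1.71 ± 0.35 for Shmt1 (adjusted p = 0.00389) and 1.60 ± 0.38 for Cars (adjusted p = 0.00994). Slc38a1 was higher by 0.99 ± 0.20 (adjusted p = 0.00373) and Slc7a3 by 0.97 ± 0.18 (adjusted p = 0.00149). Wars at 0.46 ± 0.05 (adjusted p = 2.5e-05) and Got2 at 0.33 ± 0.03 (adjusted p = 2.7e-06) had the smallest p values. With the mean of its probe sets in the fit, Got2 did not pass here (change 0.4, adjusted p = 0.833). Kars was still higher, by 0.33 ± 0.08 (adjusted p = 0.0117). Aars, Asns, Iars, Lars, Sars, Slc1a4 and Yars made up the rest, at 0.36 to 0.63.

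The lines differ between these 2 groups. When each bigenic group was first set against nontransgenic mice of its own line, the difference between the 2 changes passed for 2 genes, Got2 at 0.34 (adjusted p = 4.1e-04) and Wars at 0.42 (adjusted p = 0.00669), and kept its sign in the other 14. Line WT12 gave 2 nontransgenic mice to that estimate. Leaving out WT bigenic 1, the only male of its group, lowered the count to 10.

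Against dNLS monogenic mice, which share the line and the transgene but lack tTA, 22 of the 41 genes were higher in dNLS bigenic mice and 0 lower, where 7.76% of all genes were higher and 6.54% lower. Of the 22, 21 were also higher against nontransgenic mice; Shmt2 was added and Nars did not pass. The largest were Cars at 2.29, Mthfd2 at 2.23 (adjusted p = 0.00182), Shmt2 at 1.48 and Shmt1 at 1.36 (adjusted p = 0.00775), and the smallest Got2 at 0.23. No gene of the list passed where the transgene was carried without tTA: dNLS monogenic against nontransgenic mice gave 0 of 41 genes higher and 0 lower in limma, as for all genes (0% each way), with 1 of the 41, and 1.58% of all genes, at an unadjusted p under 0.05. The median change of the 41 genes was -0.01. In all, 15 genes were higher in dNLS bigenic mice against each of the other 3 groups. These 3 comparisons share the dNLS bigenic arrays, and the share of all genes higher in all 3 is not given here.

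The rise was shared by all 5 dNLS bigenic mice. Averaged over the 39 genes not at the lowest value, the log2 difference from the nontransgenic mean was 0.466, 0.412, 0.462, 0.343 and 0.573 in dNLS bigenic mice, -0.015, 0.029, 0.179 and 0.007 in WT bigenic mice and -0.089, 0.050, -0.078 and -0.072 in dNLS monogenic mice, against -0.142 to 0.091 in nontransgenic mice. The lowest dNLS bigenic mouse was thus above every other mouse. Within the group, number 5, the only female, was highest in 11 of the 22 genes that rose, and number 4 was lowest in 9 and highest in none. Among WT bigenic mice number 3 was highest in 16 of the 22. For the synthetases alone the means were 0.477 to 0.595 in dNLS bigenic mice, 0.124 to 0.284 in WT bigenic mice and -0.070 to 0.019 in dNLS monogenic mice, against -0.176 to 0.119 in nontransgenic mice. WT bigenic synthetase means thus lay above all nontransgenic ones by a small margin, while only Kars passed on its own. For serine and one-carbon genes the dNLS bigenic means were 0.3 to 1.013, and nontransgenic 6, at 0.625, lay within that range. For transporters they were 0.369 to 0.591, with no other mouse above 0.149. For amino acid synthesis the dNLS bigenic means, -0.079 to 0.059, lay among the nontransgenic ones.

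**Figure D5:**
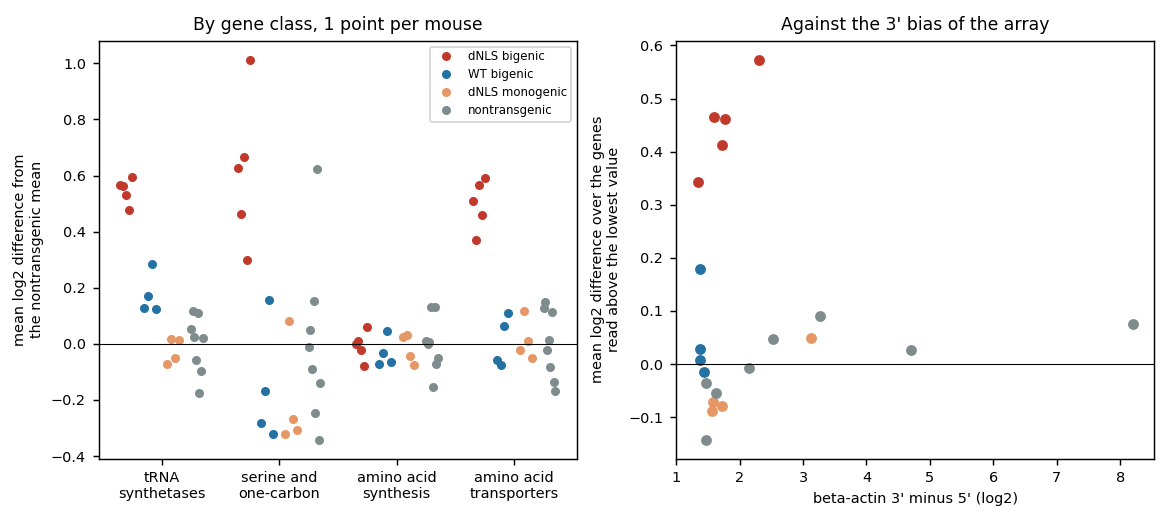
Left, mean log2 difference from the nontransgenic mean over the genes of each class, 1 point per mouse, in the order dNLS bigenic, WT bigenic, dNLS monogenic, nontransgenic. Right, the mean over 39 genes against the beta-actin 3' minus 5' difference of the array. The 5 dNLS bigenic mice sit between 0.343 and 0.573, above all others, at 3' differences of 1.338 to 2.302. Nontransgenic 6, at 8.196, lies at 0.075. Its class means differed widely, from -0.176 for synthetases to 0.625 for serine and one-carbon genes.

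Genes around these pathways were also read in dNLS bigenic against nontransgenic mice, where 10.8% of all genes rose and 11.5% fell. In a list of stress kinases, ATF4 and its targets outside the 41 genes, 6 of 20 measured genes rose and 0 fell. The 4 largest were Chac1, which degrades glutathione, at 1.43 ± 0.40 (SE, adjusted p = 0.0147), Atf3, at 1.14 ± 0.28 but near the lowest value in nontransgenic mice, Atf4, at 1.07 ± 0.15, and its relative Atf5, at 0.99 ± 0.17. Atf4 averaged 13.03 in dNLS bigenic mice and 11.95 in nontransgenic mice. Of 20 other genes of amino acid metabolism 3 rose and 2 fell. Of the 4 largest changes, Bcat2 at 0.67 and Dbt at 0.58, which act in branched-chain amino acid breakdown, rose. Srr, which makes D-serine, fell by 0.63, and the folate enzyme Aldh1l1 fell by 0.47. Of 19 other amino acid transporters 4 rose and 0 fell, among them Slc7a6 at 0.90 ± 0.23, another light chain partner of Slc3a2, and Slc6a9, a glycine carrier, at 0.62 ± 0.17.

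Markers of the cell types of the cortex were read beside these results, again with 10.8% of all genes higher and 11.5% lower. Of 8 neuronal markers 2 rose in dNLS bigenic against nontransgenic mice, Rbfox3 and Tubb3. Of 11 astrocyte markers 1 fell (Aldh1l1), of 7 microglial ones 1 fell (Tmem119), of 6 oligodendrocyte ones 1 fell (Mbp), and of 8 endothelial ones none passed. Mean marker levels of the arrays were 11.21 to 11.70 in dNLS bigenic and 10.02 to 11.997 in nontransgenic mice for neurons. For astrocytes they were 11.18 to 11.40 in dNLS bigenic and 10.80 to 11.60 in nontransgenic mice, and for microglia 8.54 to 9.36 in dNLS bigenic and 8.66 to 9.86 in nontransgenic mice, so these ranges overlapped. WT bigenic mice had astrocyte means of 11.54 to 11.93 and microglial means of 9.68 to 10.62, above the dNLS bigenic ranges. In dNLS monogenic mice the astrocyte means, 11.405 to 11.549, also lay above the dNLS bigenic range. Their microglial means, 9.23 to 9.57, overlapped it. Against dNLS monogenic mice 10 of 11 astrocyte and 7 of 7 microglial markers had negative changes in dNLS bigenic mice, none of them passing. Of 4 choroid plexus markers none passed, and all 4 differences from nontransgenic mice were positive, with a median of 1.31. Folr1, Kl and Kcne2 lay at the lowest value on most arrays, but Ttr averaged 12.92. Mean levels of the 4 were 4.56 to 6.65 in dNLS bigenic and 4.18 to 5.20 in nontransgenic mice. They were 4.38 to 6.61 in WT bigenic and 4.51 to 8.79 in dNLS monogenic mice. The part of cell composition in the results was not tested.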

How the data were processed

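Total RNA of cortex (TRIzol, RIN of at least 7) was labelled with biotin and hybridised, per the labels. The authors deposited log2 expression values of 22690 probe sets; the base was read from the values. Partek is named in the submitters' processing notes without a version, and the normalization is not given in the sources used here. Changes near the lowest value of 2.04, held by 30.7% to 32.4% of probe sets per array, are compressed. Array medians lay between 5.76 and 6.05. Precision is limited by the number of arrays.

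Probe sets were named with the platform annotation: 20380 had 1 symbol, 691 several and 1555 none, beside 64 controls. Of the 20380, 20351 matched RefSeq by Entrez identifier, and no symbol changed. The probe set of highest mean stood for each gene, a choice that arose for 22 of the 41 genes. Groups were taken from the labels' titles and genotypes. A linear model with 4 groups and labelled sex was fitted to 21 arrays in limma 3.58.1 under R 4.3.3 (lmFit, eBayes with intensity trend), with Benjamini-Hochberg adjustment over 12393 genes. All comparisons come from that fit and share arrays. The code was tested on simulated data. Alternatives were centring, a filter, no sex term, no trend, the mean of probe sets, 3' bias (as a covariate or leaving out 2 arrays), controls of the same line, and leaving out each array. Every gene of the list is named or counted; of other lists at most the 4 largest passing changes are named. The genes and lists were chosen with earlier results of these data known. Promoters are from RefSeq, GRCm38.p6; 12 measured genes matched none.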

Additional observations from a re-analysis of the deposited data

Results flagged for a closer look

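In the groups of 4, 5 and 8 mice, single arrays far from their group were found in 17 of 156 tests (10.9%), where chance gives about 1 in 20. Nontransgenic 6, the array with the largest 3' bias, accounted for 5 of them as the lowest of its group, in Eprs at 8.99 (others 10.04 to 10.87), Farsa at 6.27 (7.47 to 8.18), Rars at 9.70 (10.49 to 10.69), Sars at 11.92 (12.29 to 12.49) and Got1 at 9.87 (11.16 to 12.31), and for 1 as the highest, in Shmt1 at 5.80 (4.09 to 4.76). The female dNLS bigenic 5 was the highest of its group in Sars at 13.20 (12.93 to 12.96), Slc7a5 at 11.30 (10.66 to 10.80) and Slc1a4 at 12.89 (12.59 to 12.66). Farsa was high in dNLS bigenic 4 at 8.57 (7.82 to 7.91). WT bigenic 3 was high in Slc1a4 at 12.68 (12.20 to 12.27) and in Vars at 3.39 (the others all at 3.06). Slc3a2 was high in dNLS monogenic 2 at 12.04 (11.76 to 11.80), and Tars low in dNLS monogenic 4 at 9.11 (9.26 to 9.28). Near the lowest value, Vars was low in nontransgenic 1 at 2.51 (3.06 to 3.12), and Slc7a11 was low in dNLS bigenic 2 at 2.05 (2.13 to 2.14) and in nontransgenic 3 at 2.05 (2.13 to 2.18).

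The change in dNLS bigenic mice, each group set against nontransgenic mice of its own line, exceeded that in WT bigenic mice in a direct test for Got2 by 0.34 (adjusted p = 4.1e-04) and for Wars by 0.42 (adjusted p = 0.00669).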

How the results depend on the processing

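The 22 genes higher in dNLS bigenic against nontransgenic mice became 22 to 27 passing genes over 8 other settings and 20 to 24 when each of 21 arrays was left out; with the 3' bias as a covariate Got1 passed as lower. Of the 22, 20 passed under every setting, and the others were Iars and Slc3a2. In WT bigenic against nontransgenic mice the 1 gene became 2 with the filter on low values, without the sex term and without the 2 arrays of largest 3' bias, 0 against mice of the same line, and 1 to 2 when each array was left out. In dNLS bigenic against WT bigenic mice 16 became 2 when each was set against its own line, 10 to 19 when each array was left out, and 14 to 23 under the other 7 settings, Cbs passing as lower with the bias covariate. Against dNLS monogenic mice the 22 became 22 to 29 under other settings, including as lower Got1 with the bias covariate and Cth without the 2 arrays of largest 3' bias, and 19 to 24 when each array was left out, and dNLS monogenic against nontransgenic mice gave 0 to 0. Of the 16 genes higher against WT bigenic mice, only 1, Wars, passed under every setting. Of the 22 higher against dNLS monogenic mice, 17 did. With the mean of its probe sets Got2 passed in neither of these comparisons (adjusted p = 0.833 and 0.44 in limma). None of the passing genes changed sign under any of these settings. Counts over all genes moved more. WT bigenic against nontransgenic mice gave 276, but 152 after centring, 431 with the filter, 505 without the sex term, 170 with the mean of probe sets, 424 without the 2 arrays of largest 3' bias, 163 with the bias as a covariate, 1 against mice of the same line and 37 to 579 when each array was left out. Without those 2 arrays and with the covariate, dNLS bigenic against WT bigenic mice gave 2274 and 2437, with 1334 in the model described, and dNLS bigenic against dNLS monogenic mice gave 2885 and 2890, with 1773. Against its own line the dNLS bigenic minus WT bigenic count was 440. Levels at or close to the lowest value limit what can be read for Slc7a1, Slc1a5 and Slc7a11. No paired analysis was possible because the titles number the arrays through the series and the groups share no numbers.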
